A study of Mus musculus with 6 samples.

Results

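Krt79/Krt17 keratinocytes were selected on measured values, as the barcodes of a single-cell RNA-seq study of mouse skin in which Krt79 and Krt17 together made up at least 0.3% of the unique molecular identifiers (UMIs), Krt1 and Krt10 together less than 1%, the hair keratins Krt25, Krt27 and Krt28 fewer than 5 UMIs, and the sebocyte genes Cidea, Far2, Elovl3 and Fa2h fewer than 10 UMIs. They were chosen as candidate upper hair follicle keratinocytes. The rule selected 2387 of 25772 kept barcodes, 9.26%, out of 38206 barcodes in all, where kept barcodes had at least 300 detected genes and at most 15% mitochondrial UMIs. Balb/c mice were sensitized through the skin over 10 days, and whole skin was digested into single cells 2 days after that for droplet-based 3′ sequencing. EC-OVA is labelled OVA-sensitized (ovalbumin, a protein antigen), and EC-SAL is labelled control, with 3 libraries each. All 6 libraries share strain, tissue and timing, and their genotype, sex and age were not given in the sources used here. The labels also name CD4 as the cell type of every library, whereas the protocol describes a suspension of whole skin, and Cd3e, a subunit of the T cell receptor complex, had 824 UMIs over all kept barcodes.

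The hair follicle is an invagination of the epidermis with a permanent upper portion and a lower portion that cycles. The upper portion comprises the infundibulum, which opens at the surface, and the isthmus, which joins the sebaceous gland and borders the bulge where follicle stem cells reside. Keratin 79 marks the cells that line the infundibulum and the sebaceous duct, while keratin 17 is made more widely in the follicle, including the outer root sheath and companion layer. Follicle keratinocytes are known to secrete chemokines and cytokines that draw and hold leukocytes around the follicle opening, and keratinocyte cytokines are known to take part in allergic sensitization through skin.

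The rule gathered at least 2 kinds of barcode, and Cst6, Defb6 and Gata6 belonged mainly to one of them. Members in which Krt79 alone reached 0.1% of UMIs (Krt79-led) numbered 79, 61 and 77 in the EC-OVA libraries, against 146, 127 and 109 in the EC-SAL libraries. Those below that level (Krt17-led) numbered 252, 247 and 191 in EC-OVA, against 412, 359 and 327 in EC-SAL. As a mean over the 6 libraries, Cst6, a cysteine protease inhibitor of the infundibulum, stood at 30641 UMIs per 1e6 UMIs of the set (CPM) in Krt79-led members, against 181 CPM in Krt17-led members. Defb6, a beta-defensin, averaged 2583 CPM in Krt79-led members, against 15.7 CPM in Krt17-led members. Gata6, a transcription factor of the sebaceous duct, averaged 28.4 CPM in Krt79-led members and 1.65 CPM in Krt17-led members. The remaining markers separated the groups less: Krt6a, a keratin of the companion layer and of stressed epidermis, averaged 346 CPM in Krt79-led and 134 CPM in Krt17-led members, and Plet1, a surface protein of the isthmus, 4323 and 2116 CPM in the same groups. The summed level of all 6 markers averaged 62094 CPM in Krt79-led members, 11750 CPM in Krt17-led members, 2491 CPM in basal (Krt5/Krt14) keratinocytes, 4330 CPM in suprabasal (Krt1/Krt10) keratinocytes and 378 CPM in the other kept barcodes. This sum includes Krt79 and Krt17, which the rule uses. Its height in members over the other sets was therefore partly set by the rule and does not bear on what the members are. Cst6 and Defb6 were thus high in Krt79-led members and low in Krt17-led members, whereas Plet1 and Krt6a were present in both. The whole set is called here by its rule. Krt79 and Krt17 were used in choosing the members, and Krt79 in splitting them. Levels of the other markers were compared between Krt79-led and Krt17-led members without a test.

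Among all kept barcodes of the series, members held 78.7% of the Cst6 UMIs, 83.5% of the Defb6 UMIs and 52.0% of the Gata6 UMIs, of which Krt79-led members held 77.3%, 81.9% and 44.1% of the series' total. Krt17-led members instead held 60.3% of all Lgr5 UMIs, a gene of follicle stem cells and the lower outer root sheath, against 1.42% in Krt79-led members. Lhx2, a transcription factor of the bulge and hair germ, averaged 115 CPM in Krt17-led members and 10.8 CPM in Krt79-led members. The smooth muscle genes Tagln and Acta2 averaged 388 and 316 CPM in Krt17-led members, against 1.69 and 2.24 CPM in Krt79-led members. Sox9, a transcription factor of the outer root sheath, did not separate them, with 378 CPM in Krt17-led and 492 CPM in Krt79-led members. Neither did the bulge keratin Krt15, with 3455 CPM in Krt17-led and 3191 CPM in Krt79-led members. Library values did not overlap for 209 genes with a higher level in Krt79-led members, led after the markers by Teddm3, the corneodesmosome gene Cdsn, Ly6g6c, the skin peptidase Klk7 (1485 against 27.2 CPM), Asprv1 and Sprr1a. They did not overlap either for 442 genes with a higher level in Krt17-led members. Among these were Gnmt, Slc7a8, Myl9, Nppc, the chemokine Cxcl14 and the gap junction genes Gjb2 and Gja1. Genes averaging under 100 CPM on their higher side were not ranked. Neither count was set against all genes compared. The counts 209 and 442 therefore do not show how widely the 2 kinds of member differ, or in which direction more.

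**Figure D1:**
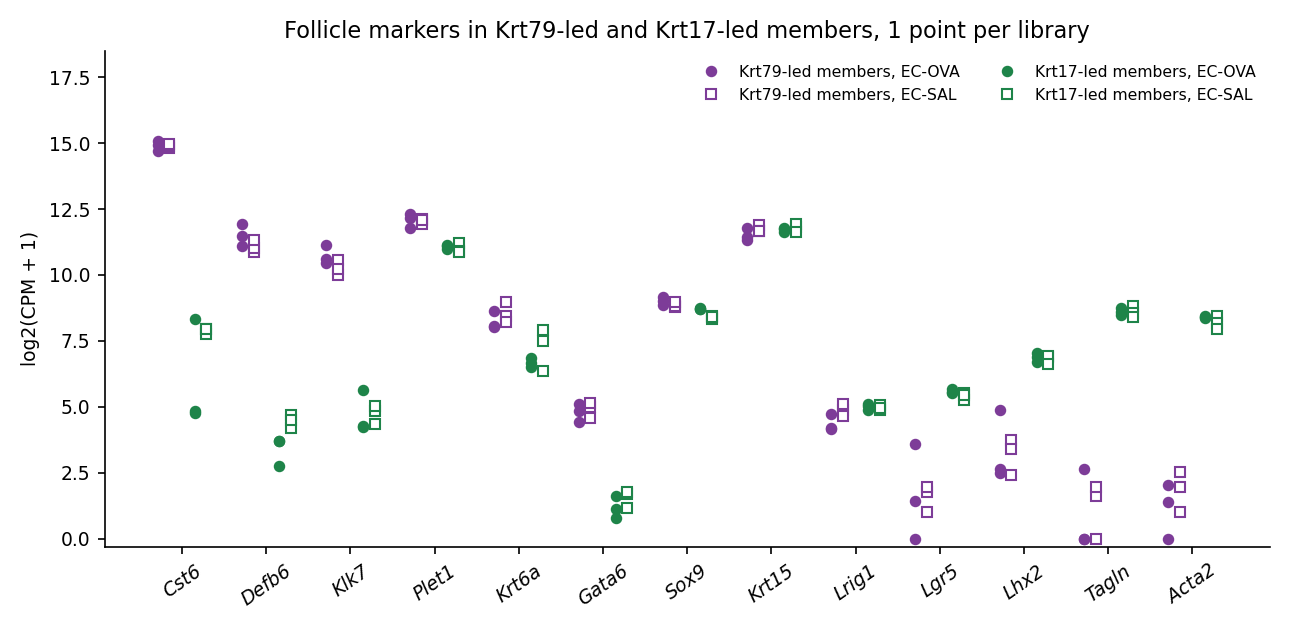
Level of follicle markers, as log2(CPM + 1), in Krt79-led and Krt17-led members, with 1 point per library, filled for EC-OVA and open for EC-SAL. Cst6 and Defb6 lie far higher in the Krt79-led members, Lgr5 and Lhx2 in the Krt17-led members, and Sox9 and Krt15 lie close together.

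At the lower edge of the rule the set had no visible border. The 345 members with 0.3 to 0.4% Krt79 and Krt17 UMIs had 143 CPM of Cst6, 241 CPM of Krt79 and 12984 CPM of Krt14. The 463 barcodes with 0.2 to 0.3% that met every other limit had 239, 232 and 15348 CPM of the same genes. Per library there were 331, 308 and 268 members in EC-OVA, against 558, 486 and 436 in EC-SAL, with 2050793 to 3620172 UMIs summed over members and a median of 5599 to 6645 UMIs per member. Libraries shared 14 to 37 kept barcode sequences per pair, and 2 such sequences in all among members. No doublet caller was run. Members with at least 0.5% of UMIs in 18 genes that define fibroblasts, leukocytes, vessel, pericyte, nerve and pigment cells numbered 7, 7 and 5 in the EC-OVA libraries, against 17, 11 and 12 in the EC-SAL libraries. Results that changed without them are given both ways. The labels do not say whether the libraries came from separate mice, so p-values measure the spread between these libraries only.

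Within the set, 3 expression patterns could be told apart by genes picked after their values were seen, so they are described without a test. The Cst6/Defb6 pattern, at least 0.5% of UMIs in those genes, covered 318 members, 13.3%, of which 310 were Krt79-led. A Tagln/Acta2 pattern, at least 0.05% of UMIs, covered 288 members, 12.1%, of which 2 were Krt79-led. An Aldh3a1/Adh7 pattern, named for an aldehyde and an alcohol dehydrogenase and also set at 0.05%, covered 645 members, 27.0%, of which 135 were Krt79-led. The remaining 1136 members, 47.6%, met none of the 3 limits. A member meeting several limits was counted under the first in this order, which mattered mainly for 105 members with both Cst6/Defb6 and Aldh3a1/Adh7.

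Each pattern carried genes that were not used to set it. Members of the Cst6/Defb6 pattern had 380 CPM of Cdsn and 457 CPM of the kallikrein Klk6, against 0.856 and 4.78 CPM in members with none of the patterns. Members of the Tagln/Acta2 pattern had 1248 CPM of Gjb2, 631 CPM of Slpi, a secreted antiprotease, and 110 CPM of Lgr5, against 133, 258 and 47.4 CPM in members with none. In the Aldh3a1/Adh7 pattern Akr1c18, a progesterone-metabolizing enzyme, stood at 1704 CPM, the water channel Aqp3 at 1395 CPM and Plet1 at 4526 CPM, against 352, 404 and 1405 CPM in members with none. Il24, a cytokine of the IL-10 family, was highest in the Aldh3a1/Adh7 pattern at 57.2 CPM, against 15.6 CPM in members with none, 8.3 CPM in the Cst6/Defb6 pattern and 0 CPM in the Tagln/Acta2 pattern. Mmp13, a collagenase, had 29.7 CPM in members with none of the patterns, 10.5 CPM in the Aldh3a1/Adh7 pattern, 0.6 CPM in the Tagln/Acta2 pattern and 0.4 CPM in the Cst6/Defb6 pattern.

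The patterns took similar shares of members in both groups. The Cst6/Defb6 pattern made up 12.7, 11.7 and 14.6% of members in the EC-OVA libraries, against 13.3, 13.4 and 14.2% in the EC-SAL libraries. Tagln/Acta2 members made up 13.6, 14.9 and 12.7% in EC-OVA and 11.6, 11.7 and 9.40% in EC-SAL, ranges that did not overlap and differed by little. For Aldh3a1/Adh7 the shares were 28.1, 22.1 and 27.6% in EC-OVA and 28.9, 26.5 and 27.5% in EC-SAL.

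**Figure D2:**
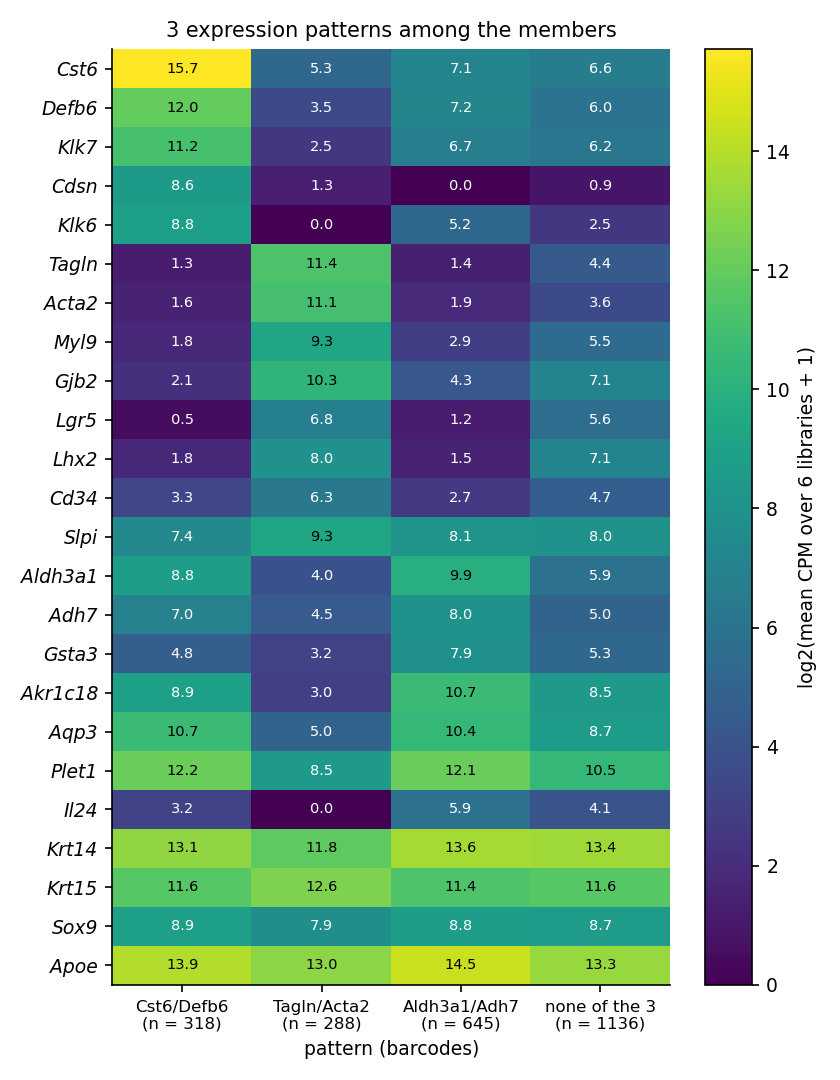
Mean level over the 6 libraries, as log2(CPM + 1) in colour, of selected genes (down) in the 3 patterns and in members with none of them (across, with the number of barcodes). Cst6 and Klk7 are high in the first column, Gjb2 and Lgr5 in the second, and Akr1c18 and Il24 in the third.

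Krt79/Krt17 keratinocytes made up a smaller share of all kept barcodes after OVA sensitization and a larger share of the epithelial barcodes. Of kept barcodes they were 8.62, 7.53 and 7.54% in the EC-OVA libraries, against 10.5, 10.5 and 10.0% in the EC-SAL libraries (7.90 ± 0.625% against 10.3 ± 0.270%, SD, n = 3 each). Of epithelial barcodes, the sum of the hair, sebocyte, suprabasal, basal and Krt79/Krt17 sets, they were 33.9, 33.5 and 31.5% in EC-OVA, against 24.9, 24.7 and 24.1% in EC-SAL (33.0 ± 1.32% against 24.6 ± 0.418%, SD, n = 3 each). Neither pair of ranges overlapped. The two-sided exact permutation test gave p = 0.1 for each, the smallest that 3 against 3 libraries allow, and 0.117 after Benjamini-Hochberg adjustment over the 7 shares compared, so neither passed 0.05. Epithelial barcodes as a whole numbered 976, 919 and 852 in the EC-OVA libraries, against 2243, 1966 and 1810 in the EC-SAL libraries, while kept barcodes numbered 3840, 4088 and 3554 in EC-OVA, against 5335, 4611 and 4344 in EC-SAL. The share of basal keratinocytes among epithelial barcodes was 23.3 ± 1.12% in EC-OVA and 33.3 ± 1.64% in EC-SAL, and that of sebocytes 7.45 ± 0.516% in EC-OVA and 4.91 ± 0.156% in EC-SAL (SD, n = 3 each, exact p = 0.1 for each). Krt79-led members made up 24.1 ± 4.47% of members in EC-OVA and 25.8 ± 0.663% in EC-SAL, with overlapping ranges (exact permutation p = 0.7). Shares depend on which cells survive digestion and capture, whose part in these differences was not tested.

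**Figure D3:**
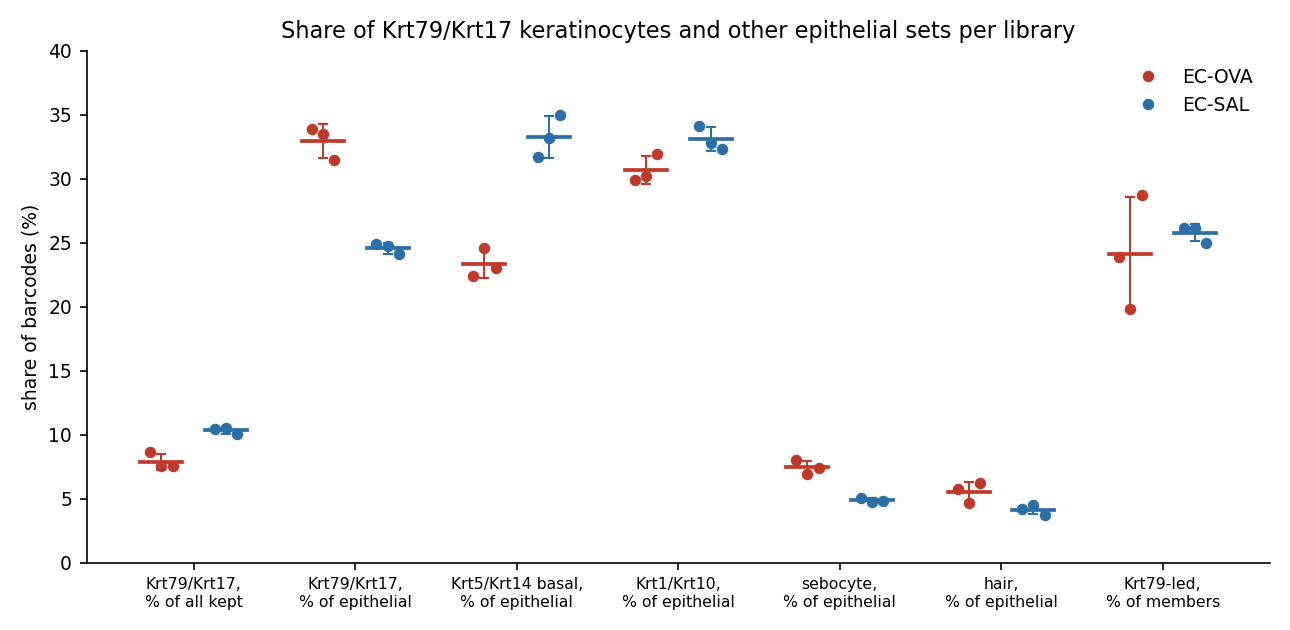
Share of barcodes (%) per library for Krt79/Krt17 keratinocytes, their Krt79-led part and the other epithelial sets, with 1 point per library, a line at the mean and bars of ± 1 SD, EC-OVA left of EC-SAL. For Krt79/Krt17 keratinocytes the EC-OVA libraries lie between 31.5 and 33.9% of epithelial barcodes, all above the EC-SAL libraries at 24.1 to 24.9%.

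To ask which genes differed between EC-OVA and EC-SAL in these cells, UMIs of the members were summed per library and 10092 genes were tested. Very few genes passed: Ccl7, a monocyte-attracting chemokine, was higher and Mmp13 was lower in EC-OVA, which is 0.0198% of the genes tested in either direction and 0.00991% in each. EC-OVA values lay above all EC-SAL values for 5.61% of genes and below them for 6.64%. At an unadjusted edgeR p under 0.05 there were 409 higher genes, 4.05%, and 321 lower genes, 3.18%, together 7.23%. The median log2 change over all genes was 0.01. DESeq2 called 8 genes, 0.0793%: Ccl7, the protease inhibitor genes Timp1 and Serpine2, the chemokine Ccl8, the activin subunit Inhba and the collagen-binding Lum as higher, and Mmp13 and Tppp3 as lower.

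Mmp13 cleaves fibrillar collagen and is induced in keratinocytes that migrate over exposed dermal collagen. Its gene lies on the plus strand at chr9:7272514-7283331 of GRCm38 in GENCODE M21. Mmp13 had 5.27, 5.13 and 7.80 CPM in EC-OVA members, against 28.5, 22.8 and 29.9 CPM in EC-SAL members. All 3 EC-OVA libraries lay below all 3 EC-SAL libraries, and the log2 change was −2.15 ± 0.21 (SE, edgeR adjusted p = 0.00654, 3 libraries per group). The counts behind it were small and came from few members: 13, 12 and 16 UMIs in 5, 7 and 4 members of the EC-OVA libraries, against 103, 76 and 94 UMIs in 19, 20 and 17 members of the EC-SAL libraries. The highest count in 1 barcode was 6, 5 and 11 UMIs in EC-OVA and 17, 11 and 17 UMIs in EC-SAL. Mmp13 was lower by a like amount without members carrying non-epithelial UMIs (−2.14, edgeR adjusted p = 0.00397), and it no longer passed without EC-OVA library 1 (−2.04, edgeR adjusted p = 0.051) or EC-SAL library 1 (−2.13, edgeR adjusted p = 0.0557).

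Members differed in this from the other keratinocytes of the same libraries. In basal keratinocytes Mmp13 had 268, 185 and 153 CPM in EC-OVA, against 208, 197 and 252 CPM in EC-SAL, which overlapped (log2 change −0.11 ± 0.17, edgeR adjusted p = 0.885, in a fit that called 0.245% of genes). In suprabasal keratinocytes Mmp13 rose to 63.2, 68.6 and 72.0 CPM in EC-OVA, against 49.7, 39.5 and 37.2 CPM in EC-SAL (log2 change 0.74 ± 0.11, edgeR adjusted p = 0.0225, in a fit that called 0.527% of genes). The log2 change of Mmp13 in members minus that in basal cells was −2.07 ± 0.23 (edgeR adjusted p = 0.00171), and minus that in suprabasal cells −2.89 ± 0.22 (edgeR adjusted p = 0.000102), in tests of the difference itself with the library as a block. These comparisons called 12 of 10488 genes, 0.114%, and 14 of 10715 genes, 0.131%. The remaining kept barcodes had 1.62 ± 0.424 CPM of Mmp13 in EC-OVA and 3.26 ± 0.465 CPM in EC-SAL. With the set narrowed to barcodes at 0.6% or more of Krt79 and Krt17, Mmp13 was too low to enter the test within members, and the differences were about as large but did not pass (−2.35 against basal cells, edgeR adjusted p = 0.319, and −3.14 against suprabasal cells, edgeR adjusted p = 0.279).

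Mmp3, which encodes stromelysin 1 and lies in the same cluster of metalloproteinase genes on chromosome 9, had 12.2, 50.5 and 14.1 CPM in EC-OVA members, against 111, 85.3 and 121 CPM in EC-SAL members. The groups did not overlap, but the change within members did not pass (log2 change −2.02 ± 0.38, edgeR adjusted p = 0.181). Without EC-OVA library 2, the highest of its group, it was −3.03 and passed (edgeR adjusted p = 0.000228). Basal cells had 828, 517 and 473 CPM of Mmp3 in EC-OVA and 563, 479 and 597 CPM in EC-SAL, and the change in members minus that in basal cells was −2.19 ± 0.35 (edgeR adjusted p = 0.0195). That difference did not pass without EC-SAL library 2 (−2.25, edgeR adjusted p = 0.0838) or EC-SAL library 3 (−2.15, edgeR adjusted p = 0.0876), and was −3.27 without EC-OVA library 2. The 250 bases upstream of the starts of these genes, from RefSeq on GRCm38.p6 and on the plus strand, are shown because both genes were low in EC-OVA members. Capitals mark TGANTCA, which contains the binding sequence of the AP-1 (Fos/Jun) factors and reads the same on both strands.
Mmp13 (chr9:7272264-7272513): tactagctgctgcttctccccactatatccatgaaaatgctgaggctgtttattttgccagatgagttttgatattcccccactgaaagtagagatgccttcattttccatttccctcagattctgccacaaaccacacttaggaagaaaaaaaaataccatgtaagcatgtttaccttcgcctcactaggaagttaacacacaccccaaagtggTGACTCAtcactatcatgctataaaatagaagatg
Mmp3 (chr9:7445572-7445821): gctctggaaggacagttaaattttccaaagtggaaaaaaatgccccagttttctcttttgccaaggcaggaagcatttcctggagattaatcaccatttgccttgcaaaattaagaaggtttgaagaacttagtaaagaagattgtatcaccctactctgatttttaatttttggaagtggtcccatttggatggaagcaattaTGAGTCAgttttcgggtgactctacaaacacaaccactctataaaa
The motif begins 35 bases before the start of Mmp13 and 46 bases before that of Mmp3. Of 32851 mouse promoters of this length, 2217, 6.75%, hold it at least once. The match describes the letters only, and a link to the levels of these genes was not tested.

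**Figure D4:**
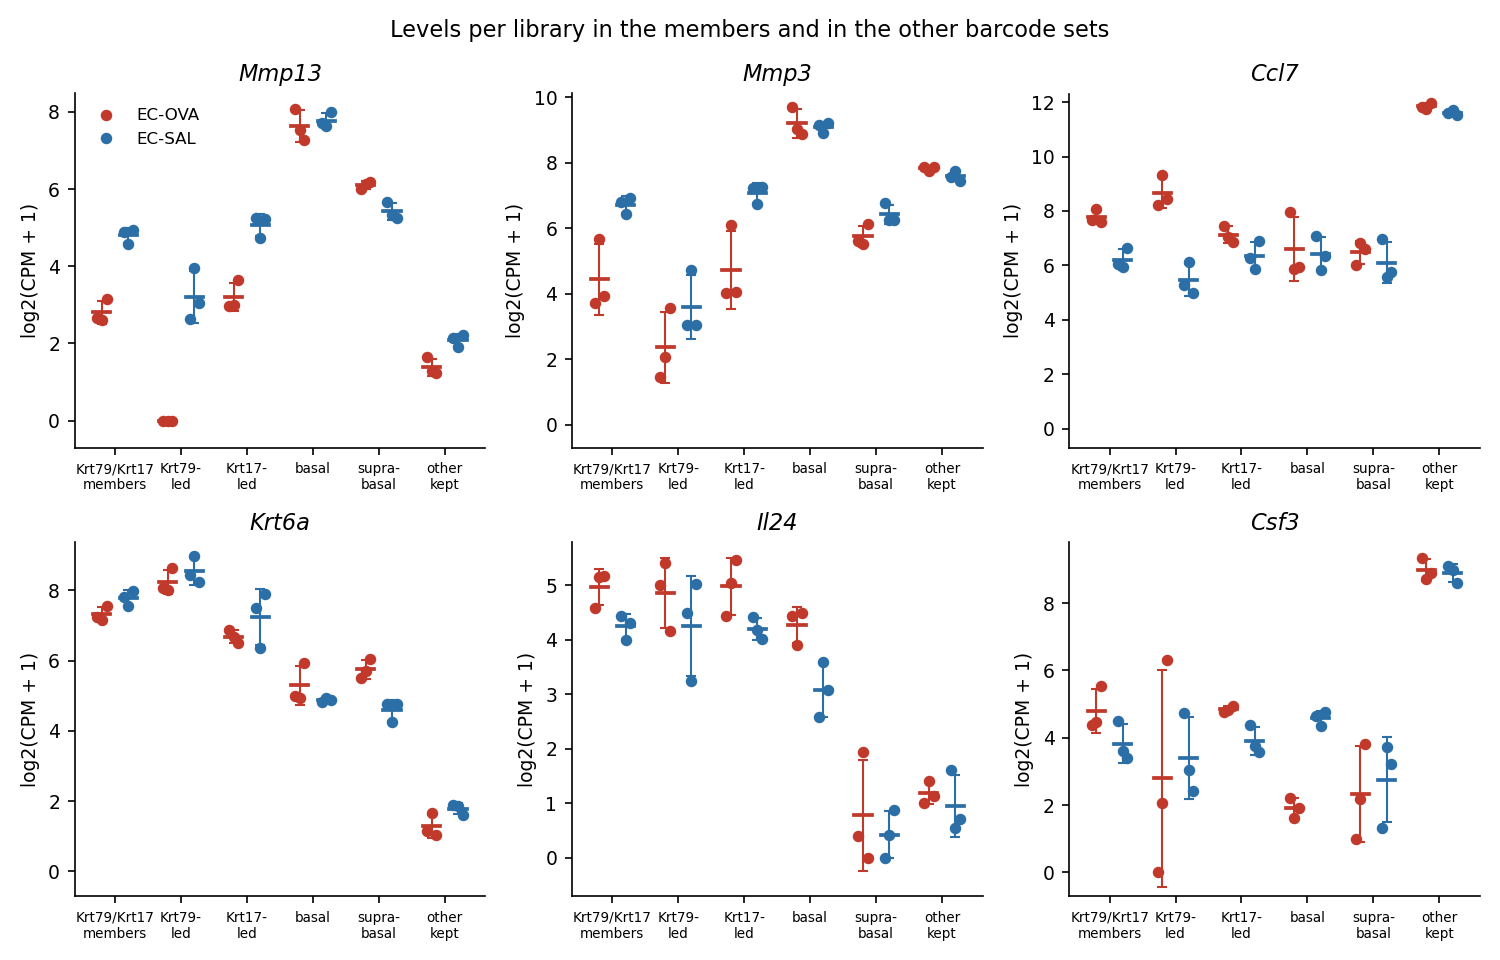
Level per library, as log2(CPM + 1), of selected genes in all members, Krt79-led and Krt17-led members, basal and suprabasal keratinocytes and the other kept barcodes, EC-OVA left of EC-SAL, with a line at the mean and bars of ± 1 SD. In the Mmp13 panel the EC-OVA points lie below the EC-SAL points in members and above them in suprabasal cells.

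Ccl7 was the single gene called higher in EC-OVA, and its difference was carried by few barcodes. It had 205, 268 and 190 CPM in EC-OVA members, against 66.0, 59.8 and 98.5 CPM in EC-SAL members, with no overlap (log2 change 1.58 ± 0.19, edgeR adjusted p = 0.0291). The gene lies on the plus strand at chr11:82045712-82047525 of GRCm38. In the EC-OVA libraries a single member held 152, 191 and 167 of the 505, 627 and 389 Ccl7 UMIs, against 22 of 239, 28 of 199 and 64 of 310 in the EC-SAL libraries. The other kept barcodes had 3680 ± 288 CPM of Ccl7 in EC-OVA and 3141 ± 172 CPM in EC-SAL, and members held 0.803% of all its UMIs. Without members carrying non-epithelial UMIs the log2 change was 0.67 and did not pass (edgeR adjusted p = 0.224), nor did it without EC-OVA library 1 (1.66, edgeR adjusted p = 0.0729), EC-SAL library 1 (1.48, 0.196) or EC-SAL library 2 (1.45, 0.159). Of 7 fibroblast markers tested, 6 were higher in EC-OVA members at an unadjusted edgeR p under 0.05, against 4.05% of all genes tested, none passed adjustment, and their median log2 change was 1.27, against 0.01 for all genes. The summed fibroblast list ran from 1074 to 1774 CPM in EC-OVA members and from 738 to 1435 CPM in EC-SAL members, against a mean of 38945 CPM in the other kept barcodes. How much of the Ccl7 difference came from RNA of other cells was not tested beyond these values.

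Of the chemokine list, Ccl7 alone passed among 11 genes tested. The monocyte chemokine Ccl2 had 621, 523 and 573 CPM in EC-OVA members, against 385, 366 and 477 CPM in EC-SAL members, without overlap (log2 change 0.49, edgeR adjusted p = 0.357). Cxcl2, a neutrophil chemokine, had 163, 90.7 and 129 CPM in EC-OVA and 88.7, 38.4 and 67.1 CPM in EC-SAL (edgeR adjusted p = 0.424). Cxcl10, an interferon-induced chemokine, lay on the other side, with 21.9, 16.2 and 12.7 CPM in EC-OVA and 34.5, 33.6 and 30.5 CPM in EC-SAL (log2 change −0.93 ± 0.17, edgeR adjusted p = 0.156). Ccl20, which draws CCR6-bearing cells, varied more within groups than between them, with 380, 278 and 644 CPM in EC-OVA and 668, 242 and 374 CPM in EC-SAL. Cxcl16, a membrane-anchored chemokine, overlapped as well, at 314, 292 and 356 CPM in EC-OVA and 377, 336 and 327 CPM in EC-SAL.

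Cytokine genes of allergic skin were low in these cells, and none passed. Il24 had 23.1, 34.6 and 35.1 CPM in EC-OVA members, against 20.7, 15.01 and 18.8 CPM in EC-SAL members, without overlap (log2 change 0.77 ± 0.19, edgeR adjusted p = 0.424). Members held 47.8% of all Il24 UMIs of the kept barcodes. Basal cells averaged 18.7 ± 4.17 CPM of Il24 in EC-OVA and 7.84 ± 3.07 CPM in EC-SAL, while suprabasal cells and the other kept barcodes had 0.72 and 1.17 CPM as means over all libraries. Tslp, an alarmin of atopic skin, had 33.6, 4.28 and 0.975 CPM in EC-OVA members, against 20.4, 6.91 and 12.7 CPM in EC-SAL members. Of the EC-OVA 1 Tslp count, 67 UMIs came from 1 barcode. The alarmin Il33 had 11.3, 7.27 and 8.29 CPM in EC-OVA and 12.2, 16.2 and 15.9 CPM in EC-SAL (log2 change −0.69, edgeR adjusted p = 0.532). Il1a, Il18, S100a8, S100a9 and Krt6b were too low to be tested. S100a8, a neutrophil and stressed-epidermis alarmin, had 7.70, 0.428 and 2.93 CPM in EC-OVA and 1.93, 0 and 0 CPM in EC-SAL, and was at 0 in Krt79-led members of all 6 libraries.

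No marker or regulator of the follicle passed. Sostdc1, of the infundibulum list, had 65.2, 51.3 and 66.3 CPM in EC-OVA members, against 96.4, 100 and 83.0 CPM in EC-SAL members. Its groups did not overlap (log2 change −0.60 ± 0.11, edgeR adjusted p = 0.156). Of 9 genes tested on that list, 5 changed above 0 and 4 below. Krt14 was also lower in EC-OVA without overlap (log2 change −0.21 ± 0.08, edgeR adjusted p = 0.624). Cst6 had 6445, 9268 and 9846 CPM in EC-OVA members, against 7851, 7819 and 7332 CPM in EC-SAL members, which overlapped (log2 change 0.17 ± 0.14, edgeR adjusted p = 0.854). Defb6 had 523, 1057 and 921 CPM in EC-OVA and 521, 532 and 576 CPM in EC-SAL (log2 change 0.64 ± 0.21, edgeR adjusted p = 0.557). Sox9 had 449, 460 and 431 CPM in EC-OVA and 373, 355 and 373 CPM in EC-SAL. This small difference had no overlap and did not pass (log2 change 0.30 ± 0.08, edgeR adjusted p = 0.429). Lrig1, a negative regulator of EGF receptor signalling and stem cell marker of the isthmus, had 29.99, 27.8 and 26.8 CPM in EC-OVA and 31.8, 29.7 and 28.9 CPM in EC-SAL. Gata6 had 6.48, 9.83 and 9.26 CPM in EC-OVA and 9.94, 7.51 and 8.58 CPM in EC-SAL. Plet1 ranged from 2432 to 2960 CPM in EC-OVA and from 2410 to 2939 CPM in EC-SAL. The stress keratin Krt16 ranged from 449 to 525 CPM in EC-OVA and from 386 to 609 CPM in EC-SAL. For the genes of the rule, given without a test, Krt79 had 2789, 2212 and 3761 CPM in EC-OVA and 3034, 2418 and 2020 CPM in EC-SAL, and Krt17 averaged 10552 ± 1174 CPM in EC-OVA and 10454 ± 481 CPM in EC-SAL (SD, n = 3 each).

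Among the gene lists, the cell cycle list stood apart in the number of genes that lay lower in EC-OVA, although no gene of it passed. Of 30 genes tested, 9 were lower and 0 higher at an unadjusted edgeR p under 0.05, against 3.18% lower and 4.05% higher among all genes tested. Of the list, 10 had lower EC-OVA values without overlap, against 6.64% of all genes tested, and the median log2 change was −0.16. Ccnb1, the mitotic cyclin B1, had 35.3, 30.4 and 31.2 CPM in EC-OVA members, against 48.9, 48.6 and 49.3 CPM in EC-SAL members (log2 change −0.59 ± 0.10, edgeR adjusted p = 0.156). Cdc20, an activator of the anaphase-promoting complex, had 70.9, 64.1 and 57.1 CPM in EC-OVA and 97.5, 79.6 and 88.4 CPM in EC-SAL (edgeR adjusted p = 0.424). Cenpe, a kinetochore motor, averaged 12.9 ± 0.747 CPM in EC-OVA and 20.7 ± 2.18 CPM in EC-SAL, and Ube2c 68.3 ± 14.8 CPM in EC-OVA and 94.3 ± 2.83 CPM in EC-SAL (SD, n = 3 each). The list was carried mainly by Krt17-led members, where its summed level ran from 3623 to 4075 CPM in EC-OVA and from 4149 to 4285 CPM in EC-SAL, against 1661 to 1878 CPM in EC-OVA and 1585 to 2446 CPM in EC-SAL Krt79-led members.

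Of 13 genes known to respond to IL-4 and IL-13, 4 were higher and 0 lower at an unadjusted edgeR p under 0.05, against 4.05% higher and 3.18% lower among all genes tested, and none passed. Timp1, an inhibitor of metalloproteinases, had 108, 60.3 and 80.5 CPM in EC-OVA members, against 31.2, 46.5 and 33.7 CPM in EC-SAL members (log2 change 1.17 ± 0.19, edgeR adjusted p = 0.156). Tnc, the matrix protein tenascin C, had 75.8, 63.3 and 74.1 CPM in EC-OVA and 44.2, 48.9 and 54.7 CPM in EC-SAL (log2 change 0.54 ± 0.11, edgeR adjusted p = 0.299). The other two were Il24 and Il13ra2, the decoy receptor of IL-13, whose EC-OVA values overlapped those of EC-SAL (15.4, 5.13 and 19.5 CPM in EC-OVA, against 7.18, 5.40 and 7.31 CPM in EC-SAL). In the other kept barcodes Timp1 stood at 1269 ± 41.8 CPM in EC-OVA and 633 ± 16.3 CPM in EC-SAL, and the part of those cells' RNA in the member values was not tested.

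Of all genes tested, 4.05% were higher and 3.18% lower at an unadjusted edgeR p under 0.05, beside which the counts of further lists at that level can be read. Of 23 matrix and integrin genes tested, 6 were higher and 4 lower, and Mmp13 alone passed adjustment. Of 18 protease and inhibitor genes 4 were higher and 1 lower, and of 12 epithelial cytokine genes 4 were higher and 1 lower, none past adjustment. Of 6 antimicrobial genes tested, 3 were higher, none was lower and none passed. Slpi stood at 379, 316 and 331 CPM in EC-OVA members, against 252, 278 and 198 CPM in EC-SAL members (log2 change 0.50 ± 0.11, edgeR adjusted p = 0.365). Of 19 cornified envelope genes, 3 were higher and 1 lower, of 17 interferon-stimulated genes 1 was higher and 2 were lower, and of 15 genes of the IL-17 and IL-22 response 1 was higher and 1 lower, none past adjustment, and the interferon and IL-17 and IL-22 counts were of 1 or 2 genes. Among 24 sterol synthesis genes, 1 was lower and 0 higher at that level, and among 22 genes of lipid and ceramide metabolism 1 was lower and 1 higher. Of 19 genes of antigen presentation, 5 were higher, against 4.05% of all genes, and 0 lower, and of these Cd74, H2-Aa, H2-Ab1 and H2-Eb1 of the class II pathway were highest in EC-OVA library 1. Cd74, the class II invariant chain, had 178, 31.6 and 21.0 CPM in EC-OVA members, against 15.5, 14.4 and 19.1 CPM in EC-SAL members, and 218 UMIs of the first value came from 1 barcode.

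Where members and basal keratinocytes changed differently, 6 genes had a higher and 6 a lower change in members. Csf3, the granulocyte colony-stimulating factor, had 19.9, 21.0 and 45.3 CPM in EC-OVA members, against 21.5, 11.1 and 9.54 CPM in EC-SAL members, which overlapped. In basal cells Csf3 fell to 3.62, 2.07 and 2.76 CPM in EC-OVA, against 24.2, 19.3 and 26.1 CPM in EC-SAL (log2 change −3.02 ± 0.26, edgeR adjusted p = 0.00135). The difference of the log2 changes was 4.02 ± 0.42 (edgeR adjusted p = 0.00124). The other kept barcodes had far more Csf3, from 419 to 641 CPM in EC-OVA and from 387 to 549 CPM in EC-SAL. The part of their RNA in the keratinocyte values was not tested. The log2 change of Cst6 was 0.17 in members and −0.72 in basal cells, neither of which passed, and their difference was 0.87 ± 0.11 (edgeR adjusted p = 0.00332). Its basal levels were 22.8, 25.8 and 30.4 CPM in EC-OVA and 39.0, 43.4 and 48.2 CPM in EC-SAL, while the other kept barcodes had 27.3 ± 8.78 CPM in EC-OVA and 201 ± 95.8 CPM in EC-SAL. Ccn1, a matricellular protein induced by stretch and wounding, had a change in members minus that in basal cells of −0.60 ± 0.08 (edgeR adjusted p = 0.00332). In members it had 950, 551 and 820 CPM in EC-OVA and 798, 770 and 737 CPM in EC-SAL, and in basal cells 553, 351 and 493 CPM in EC-OVA and 290, 310 and 322 CPM in EC-SAL. The difference for the globin gene Hbb-bs, 5.35 ± 0.69 (edgeR adjusted p = 0.00332), rested on basal cells of EC-SAL, at 121 to 467 CPM, against 3.31 to 8.78 CPM in EC-OVA basal cells and 7.70 to 15.3 CPM in members of all libraries. The Hbb-bs difference did not pass at 10% or fewer mitochondrial UMIs (4.93, edgeR adjusted p = 0.388), nor did that of Csf3 with Krt79 and Krt17 at 0.6% or more (2.28, edgeR adjusted p = 0.0758).

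Against suprabasal keratinocytes 7 genes had a higher and 7 a lower change in members, and Krt6a had the smallest p. Krt6a had 152, 142 and 188 CPM in EC-OVA members, against 225, 186 and 251 CPM in EC-SAL members, which overlapped by a little (log2 change −0.45 ± 0.13, edgeR adjusted p = 0.491). In suprabasal cells Krt6a rose to 44.6, 51.3 and 64.9 CPM in EC-OVA, against 26.1, 17.9 and 26.2 CPM in EC-SAL (log2 change 1.25 ± 0.17, edgeR adjusted p = 0.0182). The change in members minus that in suprabasal cells was −1.69 ± 0.11 (edgeR adjusted p = 4.75e-05). Il33 followed the same order: suprabasal cells had 128, 121 and 149 CPM in EC-OVA, against 81.2, 60.7 and 51.9 CPM in EC-SAL, and the change in members minus that in suprabasal cells was −1.77 ± 0.28 (edgeR adjusted p = 0.0394). The Il33 difference did not pass without 5 of the 6 libraries in turn (−2.002 to −1.59, edgeR adjusted p up to 0.192). The taurine transporter Slc6a6 had 257, 232 and 228 CPM in EC-OVA members and 245, 246 and 230 CPM in EC-SAL members, with a log2 change of 0.0040, whereas in suprabasal cells it fell to 70.5 ± 10.9 CPM in EC-OVA, against 125 ± 10.3 CPM in EC-SAL (log2 change −0.77 ± 0.10, edgeR adjusted p = 0.0147), a difference of 0.78 ± 0.10 (edgeR adjusted p = 0.011). Ccnd2, a G1 cyclin, changed by −0.19 in members, which did not pass, and by −0.87 in suprabasal cells (edgeR adjusted p = 0.0142), a difference of 0.68 ± 0.10 (edgeR adjusted p = 0.0193). Its levels were 443, 408 and 394 CPM in EC-OVA and 499, 478 and 455 CPM in EC-SAL members, and 39.2 ± 5.36 CPM in EC-OVA against 74.1 ± 8.27 CPM in EC-SAL suprabasal cells. Class II pathway genes were 4 of the 7 with a higher change in members. They were Cd74, H2-Aa (3.20 ± 0.46, edgeR adjusted p = 0.0236), H2-Ab1 (2.15 ± 0.30, 0.0193) and H2-Eb1 (2.95 ± 0.48, 0.0408). H2-Aa had 72.9, 11.5 and 9.26 CPM in EC-OVA members. The Cd74 difference of 3.15 ± 0.35 (edgeR adjusted p = 0.00482) drew in part on the single barcode of EC-OVA library 1. That Cd74 difference passed with each library left out in turn (2.515 to 3.528, edgeR adjusted p up to 0.0443). Suprabasal cells had 87.5 ± 61.3 CPM of Cd74 in EC-OVA and 188 ± 37.4 CPM in EC-SAL, a change that did not pass (edgeR adjusted p = 0.237). Without EC-SAL library 1 the Slc6a6 difference did not pass (0.73, edgeR adjusted p = 0.0582). That of Ccnd2 did not pass without EC-OVA library 3 (0.61, edgeR adjusted p = 0.0517), EC-SAL library 1 (0.63, 0.0923) or EC-SAL library 2 (0.71, 0.0621). The Krt6a difference passed under all alternatives run.

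Fitted alone, the 217 EC-OVA and 382 EC-SAL Krt79-led members called 9 of 5974 genes, 0.151%. Krt2, a keratin of the upper suprabasal epidermis, fell to 51.8, 38.4 and 60.2 CPM in EC-OVA, against 156, 201 and 212 CPM in EC-SAL (log2 change −1.88 ± 0.19, edgeR adjusted p = 0.00103). The other kept barcodes had 63.5 ± 11.7 CPM of Krt2 in EC-OVA and 226 ± 10.5 CPM in EC-SAL, with Krt79-led members at or below those means in both groups, and the part of RNA from other cells in this change was not tested. Gsta3, a glutathione transferase, fell to 36.3, 17.6 and 50.9 CPM in EC-OVA, against 132, 91.7 and 96.6 CPM in EC-SAL (log2 change −1.58 ± 0.27, edgeR adjusted p = 0.0423), with 9.59 ± 3.06 CPM in EC-OVA and 27.4 ± 0.589 CPM in EC-SAL in the other kept barcodes. The 7 genes called higher were Ccl7, Ccl2, Inhba and the matrix genes Col3a1, Col6a3, Lum and Postn, with Ccl7 at 300.5, 641 and 349 CPM in EC-OVA and 38.1, 68.7 and 30.3 CPM in EC-SAL. The summed fibroblast list ran from 1014 to 3725 CPM in EC-OVA Krt79-led members and from 401 to 762 CPM in EC-SAL Krt79-led members. Without barcodes carrying non-epithelial UMIs, none of the 7 was called, Ccl7 changed by 0.09 (edgeR adjusted p = 0.99) and Krt2 alone was still called. Mmp13 was at 0 CPM in Krt79-led members of all 3 EC-OVA libraries, against 5.15, 14.5 and 7.21 CPM in EC-SAL, too few UMIs for a test.

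Krt17-led members called 3 of 9610 genes, 0.0312%, all lower in EC-OVA. Klk8, a kallikrein peptidase of the upper epidermis, fell to 6.88, 10.5 and 9.27 CPM in EC-OVA, against 31.7, 42.4 and 42.8 CPM in EC-SAL (log2 change −2.13 ± 0.22, edgeR adjusted p = 0.00495). The other kept barcodes had 7.07 ± 0.226 CPM of Klk8 in EC-OVA and 9.23 ± 1.48 CPM in EC-SAL, with the EC-OVA members close to those means and the EC-SAL members above them. Mmp13 fell to 6.88, 7.004 and 11.4 CPM in EC-OVA, against 37.0, 25.6 and 36.3 CPM in EC-SAL (log2 change −1.99 ± 0.24, edgeR adjusted p = 0.00946). Calm4, a calmodulin-like gene of differentiating epidermis, fell to 136, 190 and 216 CPM in EC-OVA, against 380, 341 and 476 CPM in EC-SAL (log2 change −1.15 ± 0.16, edgeR adjusted p = 0.0412), with 63.4 ± 4.63 CPM in EC-OVA and 188 ± 12.1 CPM in EC-SAL in the other kept barcodes. Without barcodes carrying non-epithelial UMIs the 3 genes were called again, together with Serpine2 and the transcription factor Cebpd as higher.

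Between Krt79-led and Krt17-led members the EC-OVA over EC-SAL change differed for 22 of 8716 genes, 0.252%, with 14 signed differences, Krt79-led minus Krt17-led, above 0 and 8 below 0. For Klk8 the log2 change was 0.41 in Krt79-led members (edgeR adjusted p = 0.84) and −2.13 in Krt17-led members, a difference of 2.48 ± 0.31 (edgeR adjusted p = 0.00118). Calm4 changed by 0.10 in Krt79-led and −1.15 in Krt17-led members (difference 1.23 ± 0.18, edgeR adjusted p = 0.00365). Krtdap, a secreted protein of differentiating keratinocytes, changed by 0.41 in Krt79-led and −1.29 in Krt17-led members, neither of which passed (difference 1.62 ± 0.22, edgeR adjusted p = 0.00275). Sprr1b, a cornified envelope precursor, changed by 1.03 in Krt79-led and −1.36 in Krt17-led members, neither of which passed (difference 2.39 ± 0.36, edgeR adjusted p = 0.00496). Within Krt79-led members Krtdap had 1520, 1950 and 2112 CPM in EC-OVA, against 1450, 1577 and 1297 CPM in EC-SAL. Within Krt17-led members it had 83.7, 128 and 132 CPM in EC-OVA, against 212, 215 and 407 CPM in EC-SAL. The other kept barcodes had 31.6 ± 9.89 CPM of Krtdap in EC-OVA and 102 ± 18.6 CPM in EC-SAL, and their part in the low Krt17-led values was not tested. Sprr1b had 154, 57.6 and 247 CPM in EC-OVA and 140, 31.4 and 50.4 CPM in EC-SAL Krt79-led members. In Krt17-led members it had 5.30, 8.17 and 20.7 CPM in EC-OVA and 39.6, 13.6 and 29.4 CPM in EC-SAL. Its difference did not pass without members above the 95th percentile of UMIs (1.88, edgeR adjusted p = 0.371).

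Defb6 had 2188, 3936 and 2888 CPM in EC-OVA and 1895, 2060 and 2534 CPM in EC-SAL Krt79-led members. In Krt17-led members it had 12.2, 5.84 and 12.1 CPM in EC-OVA and 17.4, 25.2 and 21.6 CPM in EC-SAL. The change in Krt79-led members minus that in Krt17-led members was 1.56 ± 0.30 (edgeR adjusted p = 0.0335). This Defb6 difference did not pass without EC-OVA library 2 or any 1 EC-SAL library (1.03 to 1.68, edgeR adjusted p of 0.0784 to 0.174). Nor did it pass without non-epithelial barcodes (1.49, edgeR adjusted p = 0.0586) or without members above the 95th percentile of UMIs (1.205, edgeR adjusted p = 0.589). For Ccl7 the difference of Krt79-led minus Krt17-led changes was 2.40 ± 0.39 (edgeR adjusted p = 0.0111). It was 1.94 without EC-SAL library 3, which did not pass (edgeR adjusted p = 0.1), and −0.71 without non-epithelial barcodes (edgeR adjusted p = 0.642). The elastin gene Eln, a fibroblast product, had a difference of 4.43 ± 0.50 (edgeR adjusted p = 0.00054), with 3.45, 89.6 and 23.2 CPM in EC-OVA and 4.12, 1.21 and 4.32 CPM in EC-SAL Krt79-led members, and did not pass without non-epithelial barcodes (2.74, edgeR adjusted p = 0.521).

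The immediate early genes are also induced by enzymatic digestion. Of 25 tested, 4 passed with a lower change in Krt79-led than in Krt17-led members, Fos, Jun, Egr1 and Atf3. Among all genes tested 0.252% passed in either direction. The difference was below 0 for 22 of the 25, with a median of −0.39, against 0.01 for all genes. Atf3, a stress-induced partner of AP-1, had 357, 440 and 409 CPM in EC-OVA and 689, 738 and 945 CPM in EC-SAL Krt79-led members. In Krt17-led members Atf3 had 842, 1088 and 887 CPM in EC-OVA and 995, 1016 and 957 CPM in EC-SAL, and the difference of the changes was −0.86 ± 0.14 (edgeR adjusted p = 0.0114). Jun had 924, 809 and 823 CPM in EC-OVA and 1331, 1424 and 1198 CPM in EC-SAL Krt79-led members (difference −0.55 ± 0.11, edgeR adjusted p = 0.0335), and the differences of Fos and Egr1 were −0.78 ± 0.16 (edgeR adjusted p = 0.0425) and −0.72 ± 0.14 (edgeR adjusted p = 0.0335). The summed list ran from 12723 to 14459 CPM in EC-OVA and from 17170 to 17586 CPM in EC-SAL Krt79-led members, and from 16258 to 17566 CPM in EC-OVA and from 16054 to 16962 CPM in EC-SAL Krt17-led members. Without members above the 95th percentile of UMIs none of the 4 differences passed (Atf3 −0.54, edgeR adjusted p = 0.514, Jun −0.27, 0.934, Fos −0.12, 1, and Egr1 −0.27, 0.99). The Atf3 difference did not pass without EC-OVA library 2 (−0.82, edgeR adjusted p = 0.0584). Leaving out 1 library at a time, Jun passed without EC-OVA library 1 alone, Fos without EC-SAL library 1 alone, and Egr1 without EC-OVA library 3 or EC-SAL library 2, with edgeR adjusted p up to 0.223 otherwise. In the other kept barcodes Atf3 had 492 ± 20.6 CPM in EC-OVA and 731 ± 18.8 CPM in EC-SAL, and Fos 1161 ± 131 CPM in EC-OVA and 1788 ± 133 CPM in EC-SAL.

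**Figure D5:**
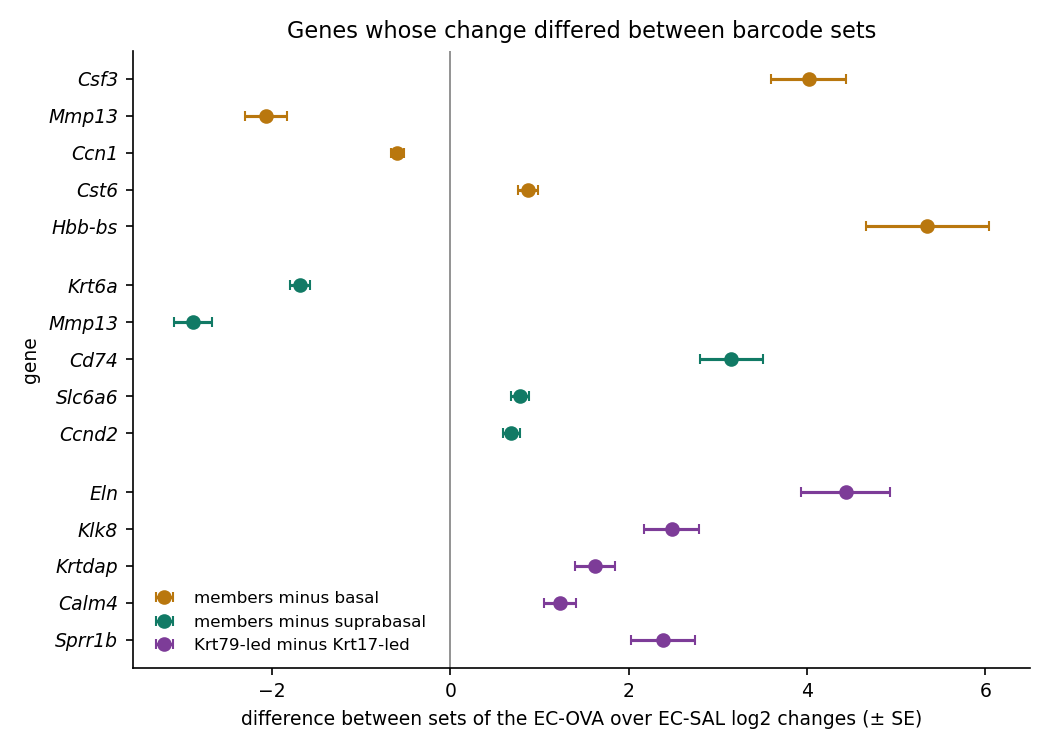
Difference between barcode sets of the EC-OVA over EC-SAL log2 change (± SE) for 5 genes in each of 3 comparisons. These have the smallest p among called genes averaging at least 20 CPM in the higher set. Rgs5 (−5.34 against suprabasal cells) and Col6a3 (3.88, Krt79-led minus Krt17-led) passed below that level and are not drawn. Values right of 0 mean a higher change in members than in basal or suprabasal keratinocytes, or in Krt79-led than in Krt17-led members. Mmp13 lies left of 0 against both basal (−2.07) and suprabasal cells (−2.89), and Krt6a at −1.69 against suprabasal cells.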

How the data were processed

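The authors deposited 1 matrix per library of UMI counts per gene and barcode, whole numbers with no normalization, made with Cell Ranger 3.1.0 per the file headers; the submitters' processing notes list STAR and mm10. Every deposited barcode had at least 500 UMIs. Of 32285 gene IDs, 32158 were matched to GENCODE M21.

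Groups are the treatment labels, with 3 libraries each. The members, gene lists and comparisons were chosen with earlier results of these data known. Basal and suprabasal sets were cut from Krt5/Krt14 and Krt1/Krt10 UMIs after the hair and sebocyte sets were taken out. UMIs were summed per library and set and tested with edgeR 4.0.16 (filterByExpr, TMM, quasi-likelihood, Benjamini-Hochberg threshold 0.05) in R 4.3.3, which was tested on simulated data; every edgeR adjusted p is from that test over all genes tested. Differences between sets were interaction terms with the library as a block. Shares were compared by exact permutation (scipy 1.17.1). The text names every gene called in members, 5 genes per interaction that averaged at least 20 CPM in the higher set, and listed genes by level and p. Further genes were named after their values were seen. Among the differences these were Mmp3, Il33, H2-Aa, H2-Ab1, H2-Eb1, Rgs5, Col6a3, Defb6, Atf3, Jun, Fos, Egr1 and Ccl7. The others were the genes called in Krt79-led or Krt17-led members and those of the patterns. Alternatives were DESeq2 1.42.0, other filters, narrower sets, a replicate block and each library left out. Counts sum to 2050793 to 3620172 UMIs per library over members, so a gene with a few UMIs per library is known only roughly.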

Additional observations from a re-analysis of the deposited data

Results flagged for a closer look

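Each value here is a difference between sets of the EC-OVA over EC-SAL log2 change that passed an edgeR test of the difference itself. No explanation of them was tested.

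Between members and basal keratinocytes, the change was higher in members for Hbb-bs by 5.35, Csf3 by 4.02 and Cst6 by 0.87. It was lower in members for Mmp3 (−2.19), Mmp13 (−2.07) and Ccn1 (−0.6).

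Between members and suprabasal keratinocytes, the change was higher in members for Cd74 by 3.15, Slc6a6 by 0.78 and Ccnd2 by 0.68. It was lower in members for Mmp13 (−2.89), Il33 (−1.77) and Krt6a (−1.69).

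Between Krt79-led and Krt17-led members, the change was higher in Krt79-led members for Eln by 4.43, Klk8 by 2.48, Ccl7 by 2.4, Sprr1b by 2.39, Krtdap by 1.62, Defb6 by 1.56 and Calm4 by 1.23. It was lower in Krt79-led members for Atf3 (−0.86), Fos (−0.78), Egr1 (−0.72) and Jun (−0.55).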

How the results depend on the processing

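Counts of called genes were small and moved with most settings. The settings also differ in how many genes enter the test, so a larger count need not be a larger share. The main fit tested 10092 genes, that of Krt79-led members 5974 and that of Krt17-led members 9610. Against 1 higher and 1 lower gene in members, DESeq2 called 6 and 2, no filter on low counts 100 and 47, Krt79 and Krt17 at 0.6% or more 2 and 0, Krt79-led members 7 and 2, Krt17-led members 0 and 3, members without non-epithelial barcodes 0 and 2, and members without those above the 95th percentile of UMIs 6 and 3. With both limits on cells, Krt79-led members without non-epithelial barcodes had 0 higher genes and Krt17-led members 2 higher and 3 lower. Leaving out 1 library at a time gave 0 to 3 in each direction.

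In the main fits of the differences, 0.114% of 10488 genes passed for basal cells, 0.131% of 10715 for suprabasal cells and 0.252% of 8716 for Krt79-led and Krt17-led members. Shares under the other settings are not given. Against 12 genes for members and basal cells, no filter gave 172, leaving out the members above the 95th percentile 19, at most 10% mitochondrial UMIs 5, and single libraries left out 10 to 24. Against 14 for suprabasal cells, the values were 138 with no filter, 25 without non-epithelial barcodes, 23 without the members above the 95th percentile and 6 to 17 without single libraries. Against 22 for Krt79-led and Krt17-led members, they were 110, 14 without non-epithelial barcodes and 9 to 29. The share of kept barcodes differed by −2.45 points (−2.81 to −2.27 without single libraries) and that of epithelial barcodes by 8.40 (7.92 to 9.15). Under the other settings the smallest differences were −0.76 and 2.80, both for Krt79-led members alone, a smaller set by construction.

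The sign turned for 7 genes that had not passed and for 1 difference that had. Cst6 changed by −0.89 in Krt17-led members, −0.90 there without non-epithelial barcodes and −0.0916 without the members above the 95th percentile. Defb6 changed by −1.09 and −0.998 in the same Krt17-led sets. Krt16 changed by −0.22 in each, −0.10 without the members above the 95th percentile, −0.0155 with no filter, and −0.14 to 0.20 without single libraries. Tslp changed by −0.0516 with DESeq2, −0.0032 with no filter and −2.25 to 0.52 without single libraries. Ccl20 changed by −0.37 and −0.40 in the Krt17-led sets and −0.36 to 0.48 without single libraries. Lrig1 changed by 0.0418 and 0.0618 in the Krt17-led sets and 0.0343 without the members above the 95th percentile. Gata6 changed by 0.0629 at 2000 or more UMIs, 0.0079 at 10% mitochondrial UMIs and −0.18 to 0.17 without single libraries. The Ccl7 difference between Krt79-led and Krt17-led members, which had passed at 2.40, was −0.71 without non-epithelial barcodes. That setting was planned for the difference. It was added after the data were seen only for the fits of Krt79-led or Krt17-led members alone. The cause of these shifts was not tested.

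Same-numbered libraries of the groups correlated at 0.03, 0.07 and −0.01 in their deviations from the group mean. EC-OVA 1 and EC-OVA 2 correlated best with their own number, and EC-OVA 3 with another (0.11 with EC-SAL 1). Values this near 0 cannot show whether the numbers pair the samples. With a replicate block 6 genes were higher and 2 lower, and Tslp changed by −0.22.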
